A study of Homo sapiens with 36 samples.

Results

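This account describes 9 genes whose enzymes form the pentose phosphate pathway or otherwise supply NADPH: PGLS, PGD, TKT, TALDO1, RPIA, ME1, IDH1, IDH2 and NNT. They were chosen by name, with earlier results of these data known. Each was read from the probe set of its platform symbol with the highest mean over all arrays. All 9 passed the filter on low values, out of 11092 genes tested. They were measured on 36 single-colour arrays of HK-2 cells, an immortalized line from the human renal proximal tubule, in 12 groups of 3 biological replicates. In the first set, cells received CdCl, Di or vehicle (control) for 12 h or 48 h. In the second set, cells received Kbr at a low dose, Kbr at a high dose or vehicle for 24 h or 48 h. The labels do not spell out the 3 compound names and give no concentrations. The series sought expression signatures of kidney toxicity. All groups are 1 immortalized line, treated close to confluency in medium with insulin, transferrin, selenite, hydrocortisone and epidermal growth factor. The labels do not say whether biological replicates were separate passages, so p-values measure the spread between these cultures.

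NADPH is the electron donor that cells use to reduce glutathione and thioredoxin and to build lipids. The pentose phosphate pathway branches from glycolysis. Its oxidative arm makes NADPH, and its non-oxidative arm exchanges carbon between sugar phosphates and yields the ribose of nucleotides. Malic enzyme and the NADP-linked isocitrate dehydrogenases make NADPH from malate and isocitrate, and NNT makes it in the inner mitochondrial membrane at the expense of the proton gradient. Proximal tubule cells clear reactive compounds with glutathione, which has to be kept reduced by NADPH.

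Values are GCRMA log2 expression of the probe set. Over genes, r between arrays was 0.983 to 0.996 within a group and 0.882 to 0.994 between groups. The beta-actin 3' minus 5' difference, a sign of RNA quality, averaged 1.40 to 1.84 log2 units in the groups of the first set and 0.87 to 1.06 in those of the Kbr set, so levels are not compared between the sets. Of 15 proximal tubule markers, 12 had a named probe set and 2, SLC4A4 and SLC3A1, lay above the floor of 4 on all 36 arrays, whereas LRP2, CUBN and AQP1 did so on 0. Of 8 renal epithelial markers, 7 lay above it on all arrays. Of 4 fibroblast markers, COL1A1 (5.17 to 8.92) and DCN (9.73 to 12.4) did so, of 6 distal nephron markers 0, and of the endothelial and leukocyte markers 0. The part of these markers in the results was not tested.

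The 9 genes moved in opposite directions. ME1, the cytosolic malic enzyme, and TALDO1, a transaldolase of the non-oxidative arm, each rose in 7 of the 8 comparisons with control. IDH2, the mitochondrial isocitrate dehydrogenase, fell in 7 of 8, and NNT in 6 of 8. RPIA rose in 4, TKT in 1, and PGLS fell in 4, while PGD rose in 1 and fell in 1, and IDH1 rose in 1 and fell in 3. At 48 h, ME1 and TALDO1 rose and IDH2 and NNT fell in all 4 comparisons. A gene was said to rise or fall where limma's moderated test gave an adjusted p under 0.05 (Benjamini-Hochberg over the 11092 genes). The comparisons of a set share control arrays at each time.

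**Figure D1:**
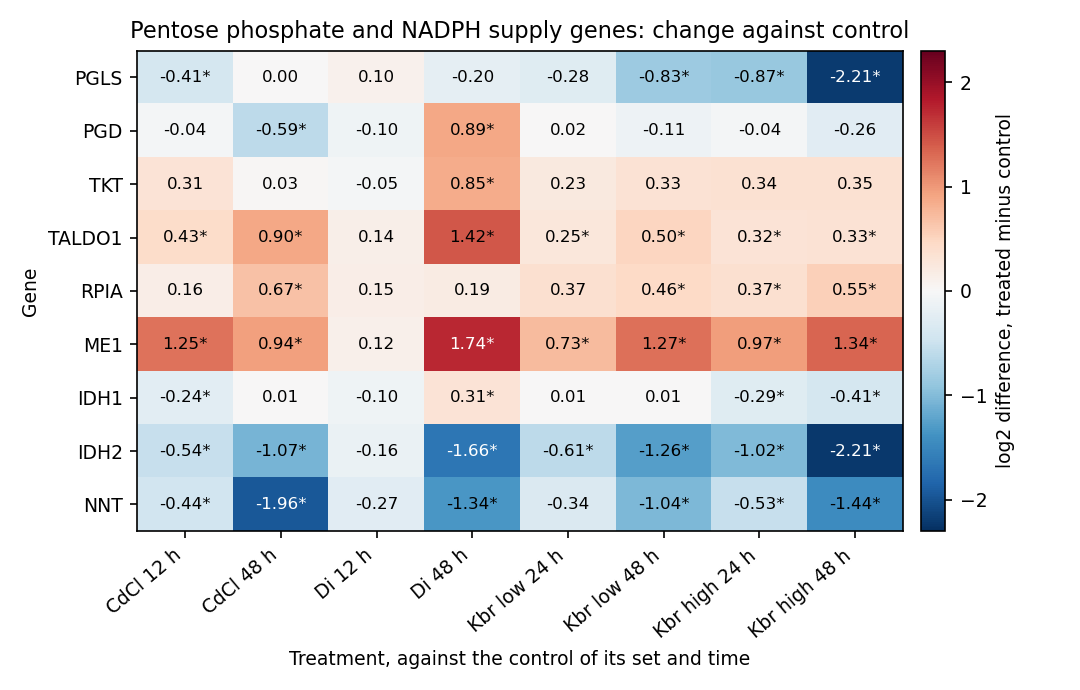
Differences in log2 expression of the 9 genes (rows) between each treatment and the control of its set and time (columns), 3 arrays against 3, as deposited and not centred; an asterisk marks an adjusted p under 0.05. ME1 and TALDO1 are positive and IDH2 and NNT negative in every column, and the Di 12 h column holds no asterisk.

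Counts of changed members in each comparison with control are given beside the shares of all genes that rose and fell. After 12 h of CdCl, 2 members rose and 4 fell, against 13.4% and 30.5% of all genes (43.9% in either direction), and with arrays centred on their medians 3 rose and 1 fell. Leaving out any 1 of its 6 arrays lowered the count of 6 changed members to 3 or 4. After 48 h of CdCl, 3 rose and 3 fell, against 20.7% and 22% of all genes (42.7%). After 12 h of Di, 0 members changed in limma's test, 0 reached an unadjusted p under 0.05, and 1.67% of all genes rose and 4.6% fell (6.27%, or 22.1% at an unadjusted p under 0.05). After 48 h of Di, 5 rose and 2 fell, against 19.1% and 23.9% (43%). With low Kbr, 2 rose and 1 fell at 24 h, against 6.93% and 8.28% (15.2%), with 1 each way after centring and 1 to 4 changed when an array was left out, and 3 rose and 3 fell at 48 h, against 23.8% and 23.2% (47%). With high Kbr, 3 rose and 4 fell at 24 h, against 15.4% and 25.3% (40.7%), turning to 4 and 3 after centring, and 3 rose and 4 fell at 48 h, against 27.3% and 34.5% (61.8%). Member groups that did not overlap their controls numbered 8 of 9 with CdCl at 12 h (63% of all genes) and 6 at 48 h (57.3%), 2 with Di at 12 h (32.4%) and 8 at 48 h (58.4%). They numbered 4 with low Kbr at 24 h (30.3%) and 6 at 48 h (48.6%), and 6 with high Kbr at 24 h (49.9%) and 7 at 48 h (61.1%). The median difference over the members was largest for 48 h of Di (0.31, against -0.01 for all genes) and lowest for 48 h of high Kbr (-0.26, against -0.06).

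In the CdCl 12 h comparison the median over all genes lay at -0.16 and centring the arrays moved it by 0.16. Centring also moved the median by over 0.1 in the 48 h comparison of Kbr doses (0.13) and in the change of the CdCl effect over time (-0.13). In these 3 comparisons, differences are therefore given below relative to the median over all genes (-0.16, -0.06 and 0.12).

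PGLS, the lactonase of the oxidative arm, fell with Kbr, further at the high dose than at the low. At 48 h it read 9.32, 8.87 and 9.00 with low Kbr and 7.81, 7.60 and 7.68 with high Kbr, against 10.17, 9.59 and 9.94 in controls. No treated array reached the lowest control array at either dose. The fall at 48 h was 0.83 ± 0.14 on the log2 scale (SE) with low Kbr and 2.21 ± 0.14 with high Kbr, a level 4.61-fold lower (adjusted p = 2.49e-13). At 24 h PGLS fell by 0.87 with high Kbr (adjusted p = 1.54e-05), and with low Kbr its difference was -0.28 (adjusted p = 0.19, or 0.0137 with the replicate number as a block). Its other kept probe set moved alike. In the first set its changes were small: after 12 h it read 8.87, 8.83 and 8.84 with CdCl and 9.38, 9.42 and 9.30 with Di, against 9.35, 9.12 and 9.31 in controls. The CdCl arrays lay below all controls, by 0.25 relative to all genes (adjusted p = 0.0178 as deposited and 0.109 after centring). Without control replicate 1 or 3 the adjusted p was 0.0699 or 0.0532. At 48 h the differences were 0.00 with CdCl (interval -0.28 to 0.29) and -0.20 with Di (-0.48 to 0.09).

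PGD, the phosphogluconate dehydrogenase that makes NADPH in the oxidative arm, moved in opposite directions under CdCl and Di. After 48 h the readings were 10.07, 10.04 and 9.77 with CdCl and 11.55, 11.42 and 11.37 with Di, against 10.55, 10.58 and 10.53 in controls. The 3 groups did not overlap. PGD fell 1.51-fold with CdCl (-0.59 ± 0.12, adjusted p = 0.000178) and rose 1.86-fold with Di (0.89 ± 0.12, adjusted p = 4.59e-07). In none of the other 6 comparisons did it pass the test: its difference was 0.12 relative to all genes after 12 h of CdCl and -0.26 to 0.02 in the other 5. The one nearest to it was high Kbr at 48 h (adjusted p = 0.0632), which passed with the replicate block (0.00484), without control replicate 2 (0.0311) and without high Kbr replicate 1 (0.0244).

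TKT, the transketolase of the non-oxidative arm, rose after 48 h of Di. It read 12.31, 12.19 and 12.19 with CdCl and 13.08, 13.07 and 12.99 with Di, against 12.15, 12.21 and 12.23 in controls. All Di arrays stood above all others, while the CdCl arrays overlapped the controls. The rise with Di was 1.80-fold (0.85 ± 0.15, adjusted p = 4.35e-05). After 12 h of CdCl TKT read 12.32, 12.27 and 12.12, against 11.80, 11.95 and 12.04 in controls, 0.47 higher relative to all genes (adjusted p = 0.107 as deposited, 0.0102 after centring).

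In the Kbr set, TKT stood 0.23 to 0.35 above control, short of the test unless replicate numbers entered the fit. At 48 h it read 13.52, 13.07 and 13.28 with low Kbr and 13.51, 13.08 and 13.31 with high Kbr, against 13.22, 12.71 and 12.94 in controls (replicates 1, 2 and 3). The ranges overlap, yet each treated array lies above the control array of its own number. Without the block the differences were 0.33 and 0.35 ± 0.15 (adjusted p = 0.0747 and 0.0512), and with it adjusted p = 0.000652 and 0.000295. At 24 h they were 0.23 with low Kbr and 0.34 with high Kbr (adjusted p = 0.36 and 0.074, or 0.0318 and 0.000625 with the block). The 48 h low Kbr difference passed without control replicate 1 (0.0251) or low Kbr replicate 2 (0.0359), and the high Kbr ones passed without control replicate 1 (0.022 at 24 h and 0.0146 at 48 h) or high Kbr replicate 2 (0.0459 and 0.0221). A dimmer TKT probe set (mean 5.67) gave larger differences than the one used: 2.02 and 2.53 for low and high Kbr at 48 h, 1.87 for Di and 1.35 for CdCl at 48 h, where its control mean of 3.68 lay under the floor.

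TALDO1 rose in every comparison but Di 12 h. The 48 h readings were 12.38, 12.49 and 12.37 with CdCl and 13.01, 12.93 and 12.87 with Di, against 11.47, 11.47 and 11.60 in controls. The 3 groups were apart, and the rise was 1.86-fold with CdCl (0.90 ± 0.09, adjusted p = 1.66e-09) and 2.68-fold with Di (1.42 ± 0.09, adjusted p = 1.15e-13). At 12 h of CdCl it was 0.59 above control relative to all genes (adjusted p = 0.000192 as deposited). The controls of this set averaged 12.10 at 12 h and 11.51 at 48 h, so the 48 h rises are set against a lower control. The CdCl arrays averaged 12.53 and 12.41 at these times, and the Di arrays 12.23 and 12.94. In the Kbr set the rises were smaller, 0.50 with low and 0.33 with high Kbr at 48 h, and 0.25 and 0.32 at 24 h. The 24 h rise with low Kbr (adjusted p = 0.043) lost the test after centring (0.0962) and without any 1 of the arrays but control replicate 3 (adjusted p = 0.0562 to 0.16). At 12 h of Di the difference was 0.14 (adjusted p = 0.362).

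RPIA, the isomerase that makes ribose phosphate, rose after 48 h of CdCl and with Kbr. RPIA at 48 h read 7.97, 7.58 and 7.69 with CdCl and 7.32, 7.35 and 7.12 with Di, against 7.26, 6.95 and 7.02 in controls. The CdCl arrays lay above all controls, and the rise was 1.59-fold (0.67 ± 0.13, adjusted p = 0.00018). The controls averaged 7.87 at 12 h and 7.08 at 48 h, and the CdCl arrays 8.03 and 7.75. The 48 h rise is thus set against a lower control, and the CdCl level itself did not go up between the times. The Di arrays overlapped the controls (0.19, adjusted p = 0.271). At 48 h it rose by 0.46 with low Kbr (adjusted p = 0.00558) and by 0.55 with high Kbr (adjusted p = 0.000821), and at 24 h by 0.37 with high Kbr (adjusted p = 0.0273). With low Kbr at 24 h the difference was also 0.37 (adjusted p = 0.0583, or 0.00853 with the block, and 0.0132 without control replicate 3). The 24 h rise with high Kbr was lost without control replicate 1 (0.104) or 2 (0.136) and without high Kbr replicate 2 (0.0578) or 3 (0.12).

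**Figure D2:**
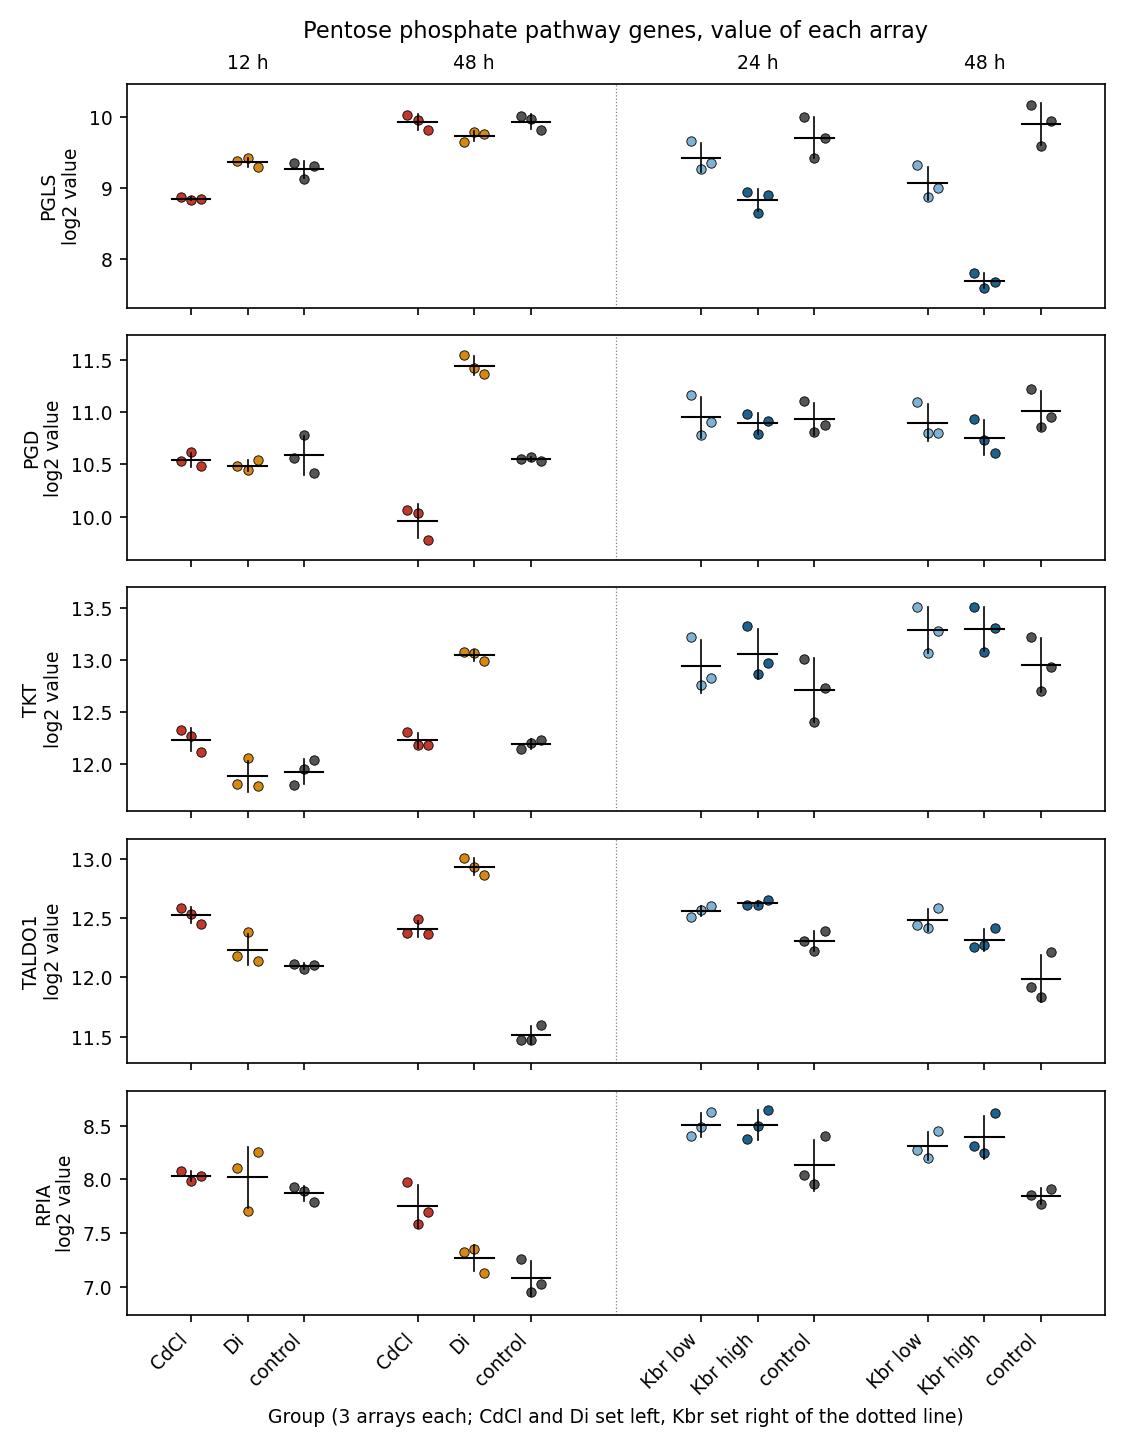
Log2 expression of the 5 pentose phosphate genes on every array (points), by group, with the group mean (horizontal line) and SD (vertical line, n = 3); the first set lies left of the dotted line and the Kbr set right of it. PGLS is lowest with high Kbr at 48 h (7.60 to 7.81), and PGD at 48 h lies below control with CdCl and above it with Di.

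ME1 had the largest rises of the 9 genes. After 12 h it read 12.24, 12.24 and 12.14 with CdCl and 11.20, 10.89 and 11.12 with Di, against 10.88, 11.06 and 10.91 in controls. After 48 h it read 11.89, 11.71 and 11.88 with CdCl and 12.64, 12.63 and 12.62 with Di, against 10.92, 10.93 and 10.82 in controls. The CdCl arrays were thus above all controls at both times, and the Di arrays at 48 h only. The 12 h rise with CdCl was 1.42 relative to all genes (adjusted p = 6.73e-12 as deposited). The 48 h rises were 1.91-fold with CdCl (0.94 ± 0.09) and 3.34-fold with Di (1.74 ± 0.09, adjusted p = 3.22e-15). With Kbr at 48 h ME1 read 11.58, 11.69 and 11.56 at the low dose and 11.69, 11.82 and 11.54 at the high dose, against 10.19, 10.40 and 10.44 in controls. Both doses lay above all controls and overlapped each other, at 2.41-fold (low, adjusted p = 1.97e-11) and 2.54-fold (high, adjusted p = 5.7e-13). At 24 h it rose by 0.73 with low and 0.97 with high Kbr. Its other kept probe set moved in the same direction.

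The promoters of the 9 genes were searched, on either strand, for TGACNNNGC, the core of the antioxidant response element bound by NRF2. RefSeq windows (GRCh38.p14, 250 bases before to 50 after a start) matched all 9 genes, with 11 windows in all. The core lay in 3 of these 11 windows, against 13.3% of 35116 windows of all genes. ME1 has 2 matches. The stretches around one match each are shown since these 3 genes differ in how they moved (capitals mark the match, written 5′ to 3′ on the gene's strand). A match describes letters only, and says nothing of binding in these cells.
ME1, chr6:83431144-83431224, minus strand, match 137 to 129 bases before the start: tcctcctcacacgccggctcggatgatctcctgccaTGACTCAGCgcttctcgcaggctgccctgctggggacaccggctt
IDH1, chr2:208255170-208255250, minus strand, match 143 to 135 bases before the start: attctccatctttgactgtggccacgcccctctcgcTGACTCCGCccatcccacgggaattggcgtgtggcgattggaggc
PGD, chr1:10398827-10398907, plus strand, core on the opposite strand, 201 to 193 bases before the start: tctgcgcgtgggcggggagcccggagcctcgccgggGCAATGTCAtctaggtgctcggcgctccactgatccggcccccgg
ME1 rose in 7 of 8 comparisons with control, whereas IDH1 and PGD rose in 1 each, both after 48 h of Di. The windows of TALDO1, which also rose in 7, and of RPIA, which rose in 4, held 0 matches. Those of PGLS, TKT, IDH2 and NNT held 0 too.

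IDH1, the cytosolic and peroxisomal isocitrate dehydrogenase, moved little. The 48 h values were 12.69, 12.75 and 12.67 with CdCl and 13.07, 12.90 and 13.04 with Di, against 12.73, 12.64 and 12.71 in controls. It rose 1.24-fold with Di (0.31 ± 0.09, adjusted p = 0.00637) and differed by 0.01 with CdCl (interval -0.17 to 0.20). With Kbr at 48 h it read 11.75, 11.74 and 11.32 at the low dose and 11.19 on all 3 arrays at the high dose, against 11.46, 11.70 and 11.63 in controls. High Kbr lay below every control array, with a fall of 0.41 (adjusted p = 0.000329), and low Kbr spanned the controls. The smaller falls depended on the setting. The one with high Kbr at 24 h (-0.29, adjusted p = 0.0137) was lost after centring (0.164) and without control replicate 2 (0.0947) or high Kbr replicate 1 (0.0568). The one after 12 h of CdCl was -0.08 relative to all genes (adjusted p = 0.0361 as deposited, 0.607 after centring, and 0.0505 to 0.128 without any 1 of its 6 arrays).

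IDH2, the mitochondrial counterpart, fell with all 3 compounds. IDH2 at 48 h read 9.29, 9.39 and 9.13 with CdCl and 8.58, 8.64 and 8.83 with Di, against 10.36, 10.21 and 10.45 in controls. It read 10.18, 9.88 and 9.91 with low Kbr and 9.13, 8.95 and 9.03 with high Kbr, against 11.56, 11.02 and 11.17 in their controls. No treated array reached a control array. The levels were 2.10-fold lower with CdCl (-1.07 ± 0.15, adjusted p = 9.58e-07), 3.15-fold lower with Di (adjusted p = 2.85e-10), 2.39-fold lower with low Kbr (adjusted p = 9.84e-08) and 4.63-fold lower with high Kbr (adjusted p = 6.31e-13). At 24 h it fell by 0.61 with low Kbr (adjusted p = 0.00551, and 0.0767 without control replicate 1) and by 1.02 with high Kbr. After 12 h it was 0.38 below control with CdCl relative to all genes (log2 difference -0.38, adjusted p = 0.00393 as deposited) and differed by -0.16 with Di (adjusted p = 0.582). The other kept IDH2 probe set averaged 3.59, under the floor, and its 48 h differences were -0.31 with CdCl and -0.38 with Di, short of the test, and -1.55 and -2.03 with low and high Kbr.

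NNT, the mitochondrial transhydrogenase, fell with all 3 compounds at 48 h. NNT at 48 h read 8.48, 8.28 and 8.45 with CdCl and 8.81, 9.02 and 9.22 with Di, against 10.36, 10.58 and 10.14 in controls. It read 10.15, 10.01 and 9.80 with low Kbr and 9.81, 9.74 and 9.20 with high Kbr, against 11.10, 11.14 and 10.83 in their controls. All treated arrays were below their controls. Of 2 further NNT probe sets, the brighter gave -1.99 for CdCl and -1.61 for high Kbr and the dimmer -1.22 and -2.16, so the order of the compounds depended on the probe set. NNT was 3.88-fold lower with CdCl (-1.96 ± 0.18, adjusted p = 6.38e-10), 2.54-fold lower with Di (adjusted p = 4.43e-07), 2.05-fold lower with low Kbr (adjusted p = 2.56e-05) and 2.71-fold lower with high Kbr (adjusted p = 6.79e-08). The Kbr controls themselves rose by 0.77 between 24 h and 48 h (adjusted p = 0.00506, and 0.0603 without 24 h control replicate 3), so the Kbr falls at 48 h are set against a higher control than those at 24 h. At 24 h NNT fell by 0.53 with high Kbr (adjusted p = 0.0184), lost without control replicate 1 (0.107) or high Kbr replicate 3 (0.0937), and differed by -0.34 with low Kbr (adjusted p = 0.214). After 12 h of CdCl it was -0.27 relative to all genes (adjusted p = 0.047 as deposited, 0.163 after centring, and 0.0583 to 0.169 without any 1 array but control replicate 3).

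**Figure D3:**
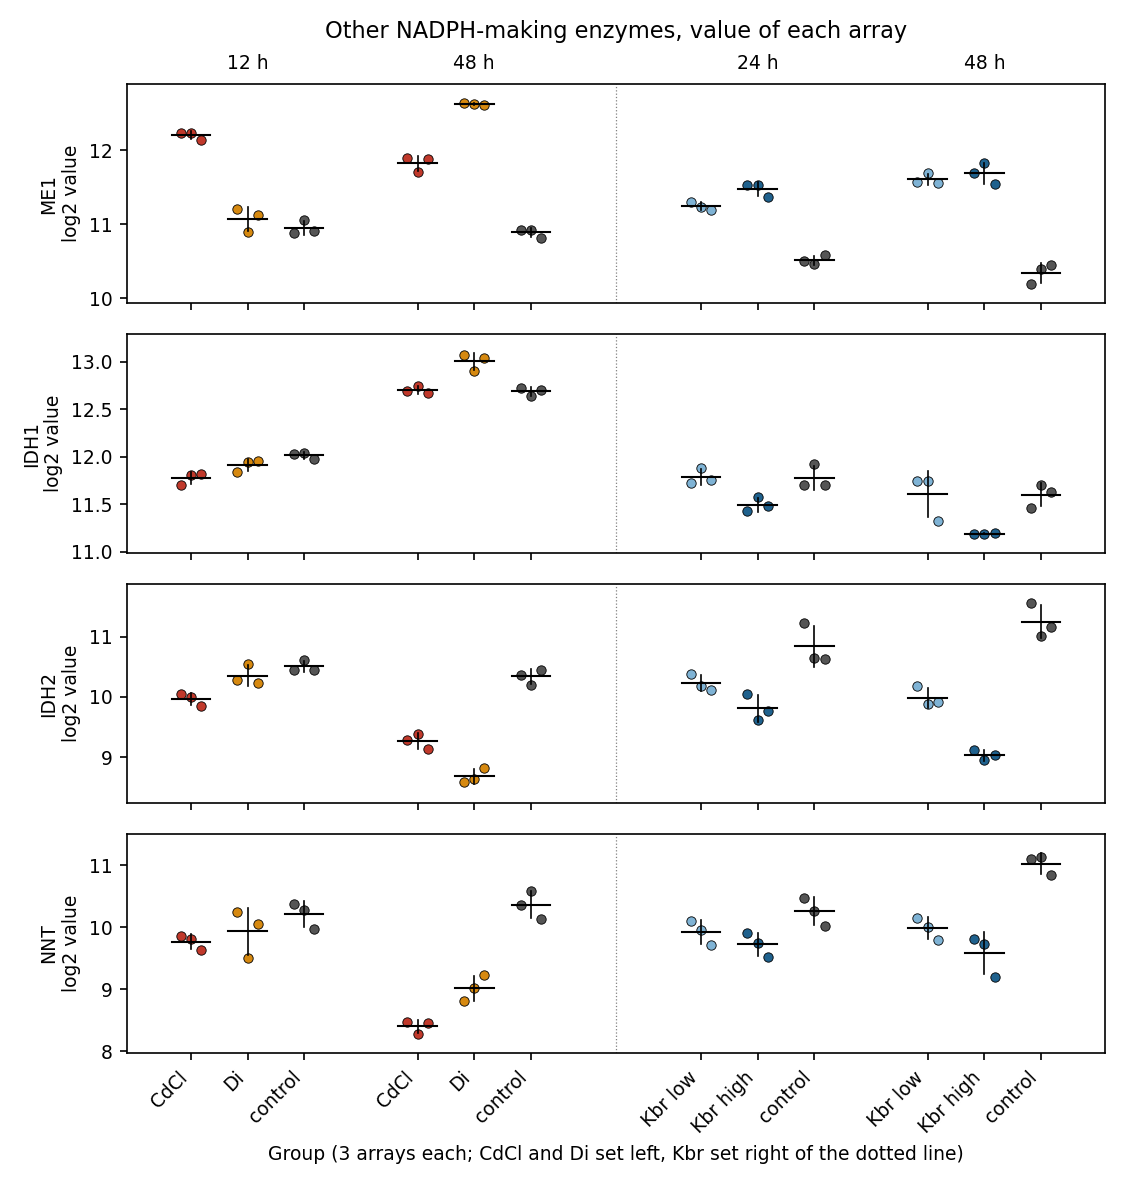
Log2 expression of ME1, IDH1, IDH2 and NNT on every array (points), by group, with the group mean (horizontal line) and SD (vertical line, n = 3). At 48 h the ME1 arrays of every treatment lie above their controls, and the IDH2 and NNT arrays below them.

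CdCl and Di were compared at matched times, the labels giving no dose. At 12 h, 4 of the 9 genes differed, 2 higher and 2 lower with CdCl (3 and 1 after centring), against 13.6% and 22.1% of all genes (35.6%). ME1 was higher with CdCl by 1.13 ± 0.09 (adjusted p = 5.73e-11) and TALDO1 by 0.29 (0.00882, and 0.0532 without Di replicate 3), while PGLS was lower by 0.52 (0.0045). IDH2 was lower by 0.38 (adjusted p = 0.0425), a call lost without any 1 of 5 of the 6 arrays (0.0541 to 0.189) and after centring (0.093). At 48 h, 8 of the 9 differed, 2 higher and 6 lower with CdCl, against 20.5% and 17.1% of all genes (37.6%). PGD had the largest difference, -1.49 (interval -1.73 to -1.24, adjusted p = 1.03e-10). TKT was lower with CdCl by 0.82, ME1 by 0.80, NNT by 0.61, TALDO1 by 0.52 and IDH1 by 0.30, and IDH2 and RPIA were higher by 0.58 and 0.48 (RPIA adjusted p = 0.00554, and 0.052 without CdCl replicate 1). PGLS differed by 0.20 with an interval of -0.08 to 0.49 (adjusted p = 0.27).

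Between the doses of Kbr, 0 members were higher and 1 was lower with the high dose at 24 h, against 0.685% and 3.71% of all genes (4.39%). At 48 h 0 were higher and 3 lower, against 6.46% and 17.3% (23.8%). At an unadjusted p under 0.05, 1 was higher and 3 lower at 24 h (17.8% of all genes in either direction). At 48 h 0 were higher and 4 lower at that threshold (35%). At 24 h PGLS was lower with the high dose by 0.60 (adjusted p = 0.0121). That call was lost without high Kbr replicate 2 (0.0743) or low Kbr replicate 1 (0.0988), and with centred arrays 1 member was higher and 1 lower. At 48 h, relative to all genes, the high dose was lower in PGLS by 1.31 (adjusted p = 5.82e-08 as deposited). On the same scale IDH2 was lower by 0.89 (2.35e-05 as deposited) and IDH1 by 0.35 (0.00136 as deposited, or 0.0531 after centring). With the replicate block IDH1 (adjusted p = 0.0224) and IDH2 (0.00929) also passed at 24 h, and NNT at 48 h (0.0297). The intervals of the 48 h difference as deposited were -0.10 to 0.26 for ME1, -0.30 to 0.33 for TKT, -0.19 to 0.36 for RPIA, -0.34 to 0.01 for TALDO1 and -0.39 to 0.10 for PGD.

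**Figure D4:**
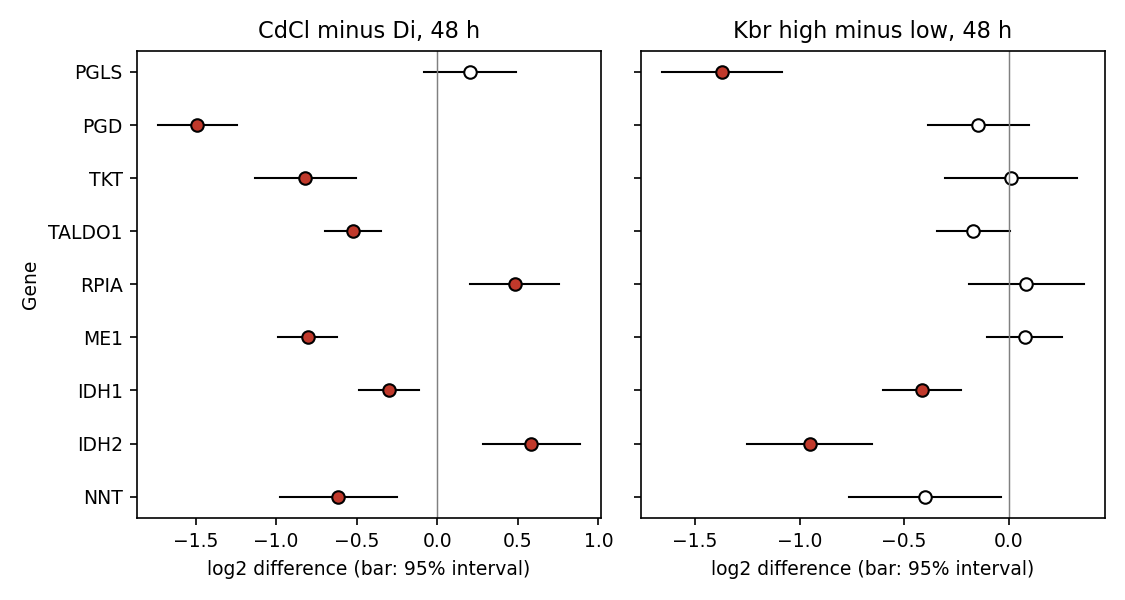
Log2 differences at 48 h of the 9 genes between CdCl and Di (left) and between high and low Kbr (right), 3 arrays against 3, as deposited; bars are 95% intervals and filled points have an adjusted p under 0.05. PGD lies farthest from 0 between CdCl and Di (-1.49) and PGLS between the doses of Kbr (-1.37), while ME1 and TKT differ between compounds and not in the test of doses.

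The effects of the first set at 48 h were also set against that of high Kbr, each measured from its own controls. The CdCl effect was higher in 4 members and lower in 1 (3 and 3 after centring), against 27.9% and 22.3% of all genes (50.1%). It was higher in PGLS by 2.21 (adjusted p = 5.92e-10), in IDH2 by 1.14 (4.51e-05), in TALDO1 by 0.57 and in IDH1 by 0.42, and lower in ME1 by 0.41 (0.00796). The Di effect was higher in 6 members and lower in 0, against 23.6% and 19.9% of all genes (43.5%). The 6 were PGLS by 2.01, PGD by 1.15, TALDO1 by 1.09, IDH1 by 0.72, IDH2 by 0.56 and ME1 by 0.40. The IDH2 difference (adjusted p = 0.03) was lost without first-set control replicate 2 (0.0772), Di replicate 3 (0.079), Kbr control replicate 1 (0.12) or high Kbr replicate 2 (0.0662). In NNT the Di and high Kbr effects differed by 0.10 with an interval of -0.42 to 0.61. Sets and compounds cannot be told apart in these 2 comparisons.

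Effects also changed with time, as the difference of a treatment from control at 48 h minus that at the earlier time. Under Di this change was positive in 5 members and negative in 2, against 15.1% and 13.9% of all genes (29%), with ME1 (1.62) and IDH2 (-1.50) at the ends. Under CdCl it was positive in 2 and negative in 2 (0 and 4 after centring), against 16.4% and 7.78% (24.2%), with NNT lowest at -1.64 relative to all genes. Under low Kbr it was positive in 1, ME1, and negative in 0, against 2.54% and 1.8% (4.35%). Under high Kbr it was positive in 1 and negative in 3, against 6.89% and 8.1% (15%), with PGLS lowest at -1.33.

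The controls changed over time too. Between 12 h and 48 h, 2 members were higher and 2 lower at 48 h in the controls of the first set, against 18.3% and 27.3% of all genes (45.7%). PGLS and IDH1 were higher by 0.67 and 0.68, and TALDO1 and RPIA were lower by 0.58 and 0.79. In the Kbr controls, 1 member was higher and 1 lower at 48 h than at 24 h, against 5.08% and 7.16% of all genes (12.2%). NNT was higher by 0.77 and TALDO1 lower by 0.32 (adjusted p = 0.014, and 0.0798 to 0.106 without 24 h control replicate 3 or 48 h control replicate 1 or 2). With centred arrays both calls there were higher ones, and no sign was reversed. The lower TALDO1 value thus lost its call, and the higher calls include a member not named here.

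Other genes of NADPH metabolism were described from lists, with no test of a list. The lists too were chosen with earlier results of these data known. In the comparisons with control, 1.67% to 27.3% of all genes rose and 4.6% to 34.5% fell. Of 8 measured genes of pentose and ribose phosphate metabolism, 2 rose and 3 fell after 48 h of high Kbr, against 27.3% and 34.5% of all genes, and over all 8 comparisons 0 to 2 rose and 0 to 3 fell. H6PD, the hexose phosphate dehydrogenase of the endoplasmic reticulum, fell in 5 of 8, with its lowest difference, -2.37 ± 0.23, after 48 h of high Kbr. RBKS, the ribokinase, rose by 1.59 ± 0.14 after 48 h of CdCl and fell in all 4 Kbr comparisons. PRPS2, a ribose phosphate pyrophosphokinase, fell by 1.15 with CdCl and by 1.52 with Di at 48 h.

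Of 9 genes listed as other makers of NADPH or NADP, 3 rose and 2 fell after 48 h of high Kbr. The shares of all genes there were the same 27.3% and 34.5%. In a comparison 0 to 3 rose and 0 to 3 fell. The cofactor that each enzyme used was not measured, so a rise is not read as more NADPH. MTHFD2, a mitochondrial folate enzyme, rose by 1.52 ± 0.20 with high Kbr at 48 h, rose with low Kbr too, and fell by 0.48 after 48 h of CdCl. ME2, a mitochondrial malic enzyme, rose in 6 of 8 (differences of 0.15 to 1.12), and MTHFD1, a cytosolic folate enzyme, fell in 7. ME3, another mitochondrial malic enzyme, rose by 1.26 with CdCl and 0.80 with Di at 48 h and fell by 1.29 with high Kbr.

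Of 6 genes of NAD-linked isocitrate and malate metabolism, 2 rose and 3 fell after 48 h of high Kbr, against the same 27.3% and 34.5% of all genes, and 1 to 3 rose and 0 to 3 fell in a comparison. The subunits of the NAD-linked isocitrate dehydrogenase did not move together. IDH3A, its catalytic subunit, rose in 8 of 8 (0.24 to 0.98), and after 48 h of high Kbr averaged 10.13, against 9.15 in controls. IDH3G, a regulatory subunit, fell by 1.45 ± 0.12 in that comparison, fell in 3 of 8 and rose in 1. ACO1, the cytosolic aconitase, fell in all 4 Kbr comparisons and rose by 0.46 after 48 h of CdCl, and MDH1, the cytosolic malate dehydrogenase, fell in 2 of 8, both with high Kbr.

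Among 12 listed genes of NADPH-using reductases, 10 rose and 0 fell after 48 h of Di (median 1.62, against -0.01 for all genes). There 19.1% of all genes rose and 23.9% fell. After 12 h of Di, 3 rose and 0 fell (1.67% and 4.6%). At an unadjusted p under 0.05, 4 rose and 1 fell there (22.1% of all genes in either direction). In the other 6 comparisons 5 to 10 rose and 0 to 2 fell, against 6.93% to 27.3% and 8.28% to 34.5%. The largest rise after 48 h of Di was that of AKR1C1, an aldo-keto reductase, at 4.73 ± 0.27, though probe sets of its family can bind related transcripts. AKR1B10, another aldo-keto reductase, rose by 3.53 and NQO1, a quinone reductase, by 3.63, or 12.4-fold. NQO1 and TXNRD1, a thioredoxin reductase, rose in 8 of 8 comparisons, TXNRD1 by 0.92 ± 0.11 after 12 h of Di, when none of the 9 supply genes passed the test. BLVRA, a biliverdin reductase, and PTGR1, a prostaglandin reductase, each fell in all 4 Kbr comparisons.

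Among 8 genes listed for lipid synthesis, 0 rose and 6 fell after 48 h of high Kbr (median -0.66, against -0.06 for all genes), where 27.3% of all genes rose and 34.5% fell. At 48 h 0 rose and 5 fell with low Kbr (23.8% and 23.2%), 0 rose and 2 fell with CdCl (20.7% and 22%), and 1 rose and 2 fell with Di (19.1% and 23.9%). At the earlier times 0 rose and 4 fell with CdCl (13.4% and 30.5%), 0 rose and 4 fell with low Kbr (6.93% and 8.28%), and 0 rose and 5 fell with high Kbr (15.4% and 25.3%). After 12 h of Di 0 rose and 0 fell in limma's test (1.67% and 4.6%). At an unadjusted p under 0.05, 0 rose and 1 fell there (22.1% of all genes in either direction). FASN, the fatty acid synthase, fell in 5 of 8, and TM7SF2, a sterol reductase, in 7 of 8 with differences down to -4.62. SQLE, the squalene epoxidase, fell in 6 of 8 and rose by 0.26 after 48 h of Di. LSS, a sterol cyclase that does not itself use NADPH, fell in 5, and HSD17B12 and KDSR passed in 0. With centred arrays or quantile normalization, run on the lists after their values were seen, the falls of BLVRA numbered 0 centred and 3 by quantile, those of PTGR1 3 centred, those of SQLE 5 centred, and its rise was lost by quantile. The counts of H6PD (4 in both), MTHFD1 (5 centred), ME2 (7 centred), MDH1 (1 centred) and TM7SF2 (6 centred) moved too, and ACO1 rose in 2 under both.

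For each member, the genes whose 8 differences from control correlated best with its own were sought among 4099 genes with a difference of at least 1 in some comparison. The 8 points share controls within a set and time, so r is a description. The closest gene was PIGV for PGLS (r = 0.992), TM6SF1 for PGD (0.989), SPRY4 for TKT (0.988), ME2 for TALDO1 (0.986), DAGLB for RPIA (0.935), GCLC for ME1 (0.977), AGO4 for IDH1 (0.966), TESC for IDH2 (0.991) and CRNDE for NNT (0.983). GCLC encodes the catalytic subunit of the enzyme that starts glutathione synthesis. For TKT, GSR, the glutathione reductase that consumes NADPH, came next (r = 0.971), then RUSC2 (0.949). For ME1, FBXO30 (0.972) and PCGF5 (0.965) came after GCLC. Each gene was picked as among the highest of 4099 candidates, and what such picking alone would give was not tested.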

How the data were processed

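Biotinylated cRNA from total RNA of HK-2 cells was hybridised to Affymetrix arrays read in 1 colour, as the labels' protocols give it. The authors deposited log2 expression per probe set, made with GCRMA per the submitters' processing notes; its version is not given in the sources used here. GCRMA corrects background by probe sequence and normalizes between arrays. Array medians lay between 2.91 and 3.02.

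Of 54675 probe sets, 23599 were above 4 on at least 3 arrays and were no control probe sets. Genes were named from the platform annotation (41091 probe sets with 1 gene, 1801 with several, 11721 with none), and 0 symbols changed against a current gene table. Each gene was read from its probe set of highest mean, giving 11092 genes. One limma 3.58.1 model (R 4.3.3; lmFit and eBayes) with 12 group means took all 36 arrays. Adjustment was by Benjamini-Hochberg over all genes at 0.05. Intervals are 95% and cover the spread between arrays only, and the number of arrays limits precision.

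Groups, times and replicate numbers came from the sample labels. In the Kbr set, arrays with the same number deviated together from group means in 45 of 45 pairs (r = 0.218 to 0.701), and the numbers were used as pairs on that basis, not from any label. In the first set 8 of 45 did so over 0.1, and the numbers were not read as pairs there. The main model held no replicate term. The replicate block alternative entered the numbers of both sets, so its first-set results rest on numbers not seen to pair arrays.

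The members and gene lists were chosen with earlier results of these data known. The naming rule allows all members, the up to 4 genes of a list with the largest changes past the test in a comparison, and the 3 genes most like each member. Not every gene it allows is named. HSD17B12, KDSR, BLVRA and PTGR1 were named outside it, after their values were seen. The alternatives changed the filter (none, or above 6), the variance prior (with a trend), the scaling (quantile or median centring), the probe set (second highest, or the mean of all kept), the model (replicate block, or fewer arrays) and the arrays (each left out).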

Additional observations from a re-analysis of the deposited data

Results flagged for a closer look

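The effect of a treatment, its difference from control, differed between the times in 16 cases by the test of the interaction in limma (adjusted p over all genes). Under Di, 7 of the 9 genes had a larger effect at 48 h than at 12 h (29% of all genes changed): the change was 1.62 for ME1 (adjusted p = 7.21e-11), 1.28 for TALDO1 (4.17e-09), 0.99 for PGD (4.46e-05), 0.90 for TKT (0.0023), 0.41 for IDH1 (0.0162), -1.50 for IDH2 (2.44e-06) and -1.07 for NNT (0.00172).

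Under CdCl, 4 genes did so (24.2% of all genes). As deposited, the change was -1.52 for NNT (8.32e-05), -0.55 for PGD (0.0169), 0.47 for TALDO1 (0.00597) and 0.51 for RPIA (0.0492). Relative to the median over all genes these are -1.64, -0.68, 0.34 and 0.39. The controls of TALDO1 and RPIA were themselves lower at 48 h than at 12 h. After centring, 0 of all members passed the test upward and 4 downward. No sign was reversed, so TALDO1 and RPIA lost their calls and the 4 falls include members not named here. The RPIA call was lost without any 1 of 10 of the 12 arrays (adjusted p = 0.0561 to 0.149), and that of PGD without 12 h control replicate 3 (0.0567) or 48 h CdCl replicate 3 (0.0557).

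Under high Kbr, 4 genes changed between 24 h and 48 h (15% of all genes): PGLS by -1.33 (5.31e-05), IDH2 by -1.19 (0.0003), NNT by -0.91 (0.014) and ME1 by 0.38 (0.0411). NNT was lost without 24 h control replicate 3 (0.0543), and ME1 without any 1 of 6 of the 12 arrays (0.0522 to 0.135). Under low Kbr only ME1 changed in this test, by 0.53 (0.0172; 4.35% of all genes), lost without 24 h control replicate 3 (0.0636), 48 h control replicate 1 (0.0553) or 48 h low Kbr replicate 2 (0.0506).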

How the results depend on the processing

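Each value was recomputed under the alternatives. The shares of all genes called under each alternative are not given here. The counts below therefore cannot tell a shift of the members from a general gain or loss of calls. Of the comparisons with control, the counts for CdCl 48 h, Di 12 h, Di 48 h, both high Kbr comparisons and low Kbr 48 h stayed within 1.5 times under every alternative. Leaving out each array in turn gave 3 to 4 changed members for CdCl 12 h (6 in all arrays). For low Kbr 24 h (3) it gave 1 to 4, against 5 with the mean of probe sets, 6 with the replicate block and 1 with only the compared groups.

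For the Kbr doses at 24 h (1), counts were 2 with a variance trend, 2 centred, 3 with the block, 0 with only the compared groups, 0 with only the set's arrays and 0 to 1 leaving out arrays. For the change of effect over time, the CdCl count (4) was 7 with the block, 7 with the compared groups, 7 with the set's arrays and 2 to 4 leaving out arrays. For high Kbr (4) it was 2 with the mean of probe sets, 2 with the second highest probe set, 2 with the compared groups and 2 to 4 leaving out arrays. For low Kbr (1) it was 2 centred, 4 with the block, 0 with the compared groups, 0 with the set's arrays and 0 to 3 leaving out arrays. For CdCl against high Kbr (5), it was 3 with the mean of probe sets, 3 with the second highest and 8 with the block. For the Kbr controls (2), it was 5 with the block, 0 with the compared groups, 1 with the set's arrays and 0 to 3 leaving out arrays. The cause of these shifts was not tested. The only reversed value was IDH2 in the change of the Di effect, 0.45 with its second highest probe set, which averages 3.59, under the floor. Contrasts across the sets have no fit on 1 set.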
